A study of Mus musculus with 3 samples.

Results

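The REST knockout methylome of mouse embryonic stem (ES) cells was examined in fixed tiles of 100 kb, a scale at which a tile holds many CpGs and none, 1 or a few genes. Methylation was read from 1 whole-genome bisulfite sequencing library, in which unmethylated cytosines are converted and methylated ones are not. Each read over a CpG is thus 1 observation of either state. Hydroxymethylated cytosines are not converted either, so methylated here covers both modifications, which these reads cannot tell apart. The 19 autosomes were cut into 24731 tiles from their first base. CpGs with 1 to 96 observations were used, and 23405 tiles with at least 200 such CpGs were kept. The methylation level of a tile is the number of methylated observations over all observations in it, in percent.

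The cells carried the REST knockout and came from blastocysts of the Black Agouti 129 strain. They were grown on feeder cells or gelatine in medium with serum and LIF. The labels do not say which of these the library came from, and they do not say how many ES cell lines it came from. The series also holds 2 wild type ES cell libraries of the mixed 129-C57Bl/6 strain, grown the same way, in which DNA bound by CTCF was immunoprecipitated before bisulfite treatment. The REST knockout has no replicate, so the values below describe 1 library, no test was made between conditions, and tiles are not replicates of a condition. Confidence intervals (95%, exact binomial) cover counting error only, computed as if all observations were independent. Reads without molecular identifiers are not independent molecules, and 1 read can give observations at several CpGs. The intervals and the values given for counting error may thus be too small. As a measure of spread, the range or SD over the 19 autosomes is given.

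In mammals, most CpGs outside regulatory DNA are methylated, and the mark is copied to the new strand after replication by Dnmt1 and laid down anew by Dnmt3a and Dnmt3b. CpG islands, the short CpG-dense stretches at the starts of many genes, are usually free of it, and the rest of the genome is poor in CpGs. The bodies of transcribed genes are often methylated. REST is a zinc finger repressor that binds regulatory sites of neuronal genes and holds them silent outside neurons.

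The range of the tiles can be seen in the sequence itself. For the lowest tile, the tile nearest the median and the highest tile, the 300 bases without annotated exon that held the most observed CpGs are printed in lower case, with each CpG in capitals (mm9, plus strand, 5′ to 3′).
Lowest tile, chr13:17896936-17897235: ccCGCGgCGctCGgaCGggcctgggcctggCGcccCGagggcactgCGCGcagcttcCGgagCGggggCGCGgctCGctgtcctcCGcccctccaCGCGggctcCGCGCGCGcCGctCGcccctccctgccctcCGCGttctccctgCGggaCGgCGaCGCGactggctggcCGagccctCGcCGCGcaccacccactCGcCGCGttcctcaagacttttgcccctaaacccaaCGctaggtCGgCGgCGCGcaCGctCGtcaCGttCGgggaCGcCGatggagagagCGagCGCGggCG
Tile nearest the median, chr3:58712319-58712618: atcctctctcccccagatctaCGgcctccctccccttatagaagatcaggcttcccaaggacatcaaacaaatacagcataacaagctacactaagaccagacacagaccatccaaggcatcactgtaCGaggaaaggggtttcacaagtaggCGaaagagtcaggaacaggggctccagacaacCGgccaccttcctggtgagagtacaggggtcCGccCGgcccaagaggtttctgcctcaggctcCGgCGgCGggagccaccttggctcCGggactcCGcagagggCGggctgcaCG
Highest tile, chr7:24096702-24097001: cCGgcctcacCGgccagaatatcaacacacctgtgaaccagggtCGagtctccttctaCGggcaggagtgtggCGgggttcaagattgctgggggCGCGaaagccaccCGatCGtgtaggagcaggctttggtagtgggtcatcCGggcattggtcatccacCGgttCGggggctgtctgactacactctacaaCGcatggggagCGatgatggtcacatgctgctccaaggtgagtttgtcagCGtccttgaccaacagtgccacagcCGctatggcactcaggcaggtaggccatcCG
The window of the lowest tile lies just upstream of the start of Cdk13, a kinase that phosphorylates RNA polymerase II, which is at base 17896931 of chromosome 13 on the minus strand. It holds 52 CpGs, and 57 of its 1939 observations were methylated (2.94%, interval 2.23 to 3.79%). The window of the middle tile overlaps no protein-coding gene, and the nearest start, of Clrn1, is 23206 bp from its centre. It holds 13 CpGs, and 124 of 140 observations were methylated (88.6%, interval 82.1 to 93.3%). The window of the highest tile lies inside Nlrp4e, 10557 bp from its start. It holds 17 CpGs, and 211 of 228 observations were methylated (92.5%, interval 88.3 to 95.6%). The CpG-rich window upstream of Cdk13 thus carried 37.3 observations per CpG, against 10.8 and 13.4 in the others, and because a tile level sums observations, such stretches weigh more than their number of CpGs.

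The targeted gene and the cell type were examined first. Rest, at chr5:77694516-77715457, holds 461 CpGs, of which 317 were listed in the knockout. One stretch of 123 consecutive CpGs, from base 77695242 to base 77697727 (2486 bp, touching 2 annotated exons), had no observation at all. The wild type libraries listed 35 CpGs (replicate 1) and 109 CpGs (replicate 2) of the same stretch, although they were much shallower. The next longest stretch without observation in the gene held 4 CpGs. Promoters (500 bp either side of the gene start) of 9 of 10 pluripotency genes were below 20% methylated in the knockout, among them Pou5f1 (4.04%), Sox2 (2.31%) and Nanog (16.7%), the transcription factors at the core of the ES cell state. The exception was Esrrb, with 74.0%. Of 5 genes of fibroblasts, the cells that serve as feeders, the collagen genes Col1a1 (70.2%), Col1a2 (62.1%) and Col3a1 (88.9%, 9 observations) were methylated, whereas Thy1 (6.19%) and Vim (4.80%) were not.

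Most of the genome was methylated at an intermediate to high level. The median tile had 66.0% methylated observations, with quartiles of 54.0 and 70.9% and a range of 8.02 to 82.7%. Of all tiles, 66.9% lay between 60 and 80%, 21.9% between 40 and 60%, and 11.1% below 40%. Only 25 of 23405 tiles reached 80%, and 92 were below 20%. The distribution was thus asymmetric, with a sharp upper edge and a long tail towards low methylation. The SD between tiles was 13.5 percentage points. Counting error alone would give 0.865 points at these depths if all observations were independent. A tile held a median of 4498 observations (541 to 65491) at 603 CpGs. The interval of a single tile had a median half-width of 1.35 points. Blocks of 10 kb within a tile differed from each other by a median SD of 9.72 points.

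The low tail went with a small class of CpGs. CpGs were divided by the number of CpGs in a window reaching 100 bp to either side, themselves included. With 1 CpG in that window, methylation was 67.7%, and it was 68.8% with 2-3 and 67.6% with 4-6. It was 58.3% with 7-10, 30.9% with 11-15, 9.81% with 16-20 and 3.87% with 21 or more. Coverage went the opposite way, from 5.84 observations per CpG for a CpG alone in its window to 32.2 with 21 or more. CpGs with at least 11 CpGs in the window, called CpG-dense here, were 8.86% of the CpGs but 22.6% of the observations, and 13.1% of those observations were methylated. In the remaining CpG-sparse context, 66.4% were. This division was chosen after the data had been seen.

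**Figure D1:**
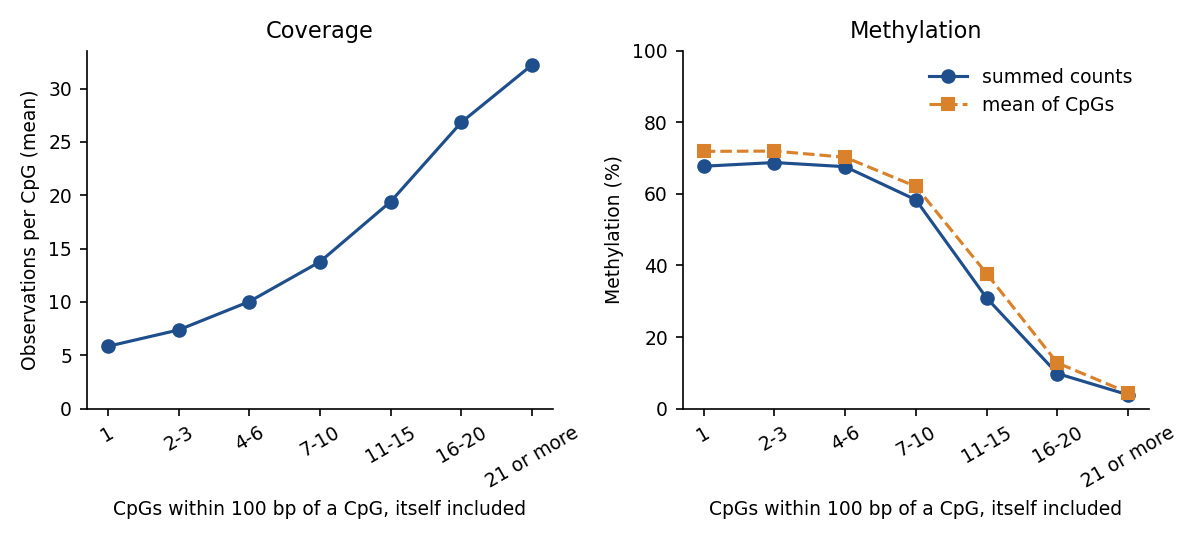
Mean observations per CpG (left) and methylation in percent (right) against the number of CpGs within 100 bp of a CpG, itself included, over all autosomal CpGs of the REST knockout library with 1 to 96 observations. Blue circles are summed counts and orange squares the mean over CpGs; from 1 to 21 or more CpGs, observations per CpG went from 5.84 to 32.2 and methylation from 67.7 to 3.87%.

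Restricted to CpG-sparse context, 23303 tiles had 200 CpGs or more. Their median was 68.0%, close to that of all CpGs, but the SD was 6.32 points and the range 29.6 to 81.4%. Only 0.219% of the tiles then lay below 40%, against 11.1% with all CpGs. Counting error would give an SD of 0.907 points. An upper edge was present in both forms, with the 99th percentile of tiles at 77.4% with all CpGs and 77.1% in CpG-sparse context. When each CpG was given the same weight, whatever its depth, the median was 70.1% and the SD 8.18 points. Of the CpG-sparse CpGs with at least 10 observations, 7.12% were below 20% methylated, 61.3% between 20 and 80%, and 31.6% above 80%. Most of these CpGs thus read at an intermediate level themselves, although at about 10 observations counting error alone can place a CpG in this class. They were 4420413 of the 14621332 CpG-sparse CpGs. Methylation was lower at CpGs of higher coverage also within a context. In CpG-sparse context it was 74.4% at CpGs with 1 to 3 observations and 62.5% at those with 31 to 96, and in CpG-dense context 49.2 and 8.99%.

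**Figure D2:**
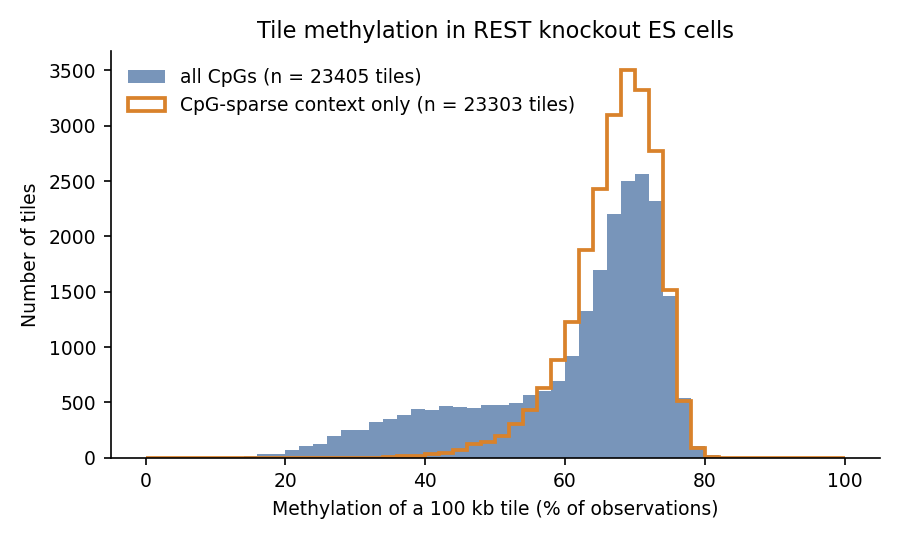
Number of 100 kb tiles by methylation level (percent of observations, bins of 2 points) in REST knockout ES cells. The filled histogram uses all CpGs (23405 tiles) and the orange outline CpGs in CpG-sparse context only (23303 tiles); the medians are 66.0 and 68.0%, and the tail below 40% holds 11.1 and 0.219% of tiles.

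The autosomes were alike. Their median tile ranged from 63.2% on chromosome 11 to 67.5% on chromosome 13 (SD 1.01 points over the 19 autosomes), and in CpG-sparse context from 67.3 to 69.2% (SD 0.497). Chromosomes 11 and 19 had the largest shares of tiles below 40%, with 16.9 and 15.0%, and chromosomes 16 and 1 the smallest, with 8.34 and 8.52%. Over the 19 autosomes, this share went with the number of gene starts per tile (Pearson r = 0.837, Spearman rho = 0.804, as a description of chromosomes of 1 library). Neighbouring tiles resembled each other weakly. Over 23064 adjacent pairs, r was 0.267, and it was 0.113 at 500 kb, 0.073 at 1 Mb and 0.006 at 5 Mb. In CpG-sparse context r was higher near by, 0.375 for adjacent tiles and 0.148 at 500 kb, and 0.001 at 5 Mb. These pairs share 1 library, and adjacent tiles also share base composition.

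Tiles of different CpG density did not differ in 1 direction. CpG density is the number of CpGs of a tile listed in any of the 3 libraries, with a median of 640 (203 to 2766). Tiles were put into 10 classes of about equal size by CpG density. From the class with the fewest CpGs (median 277) to the fifth (577), the median level went up from 65.3 to 69.2%. It then went down to 47.4% in the class with the most CpGs (median 1402). The SD was 5.95 points in the first class, 15.6 in the seventh and 14.1 in the last, and the share of tiles below 40% went from 0.803 to 30.8%. Over all tiles Spearman's rho was -0.270, and it was below 0 on 19 of 19 autosomes (-0.471 to -0.168). In CpG-sparse context the same classes ran from 65.3% through 70.0% in the sixth to 63.3% in the last, and rho was 0.009, below 0 on 8 of 19 autosomes. CpG-dense CpGs supplied 6.48% of the observations in the first class and 31.1% in the last. Gene starts rose with them, from 0.318 to 2.6 per tile, and coverage from 4.39 to 15.0 observations per CpG, so density, gene content and depth went together.

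**Figure D3:**
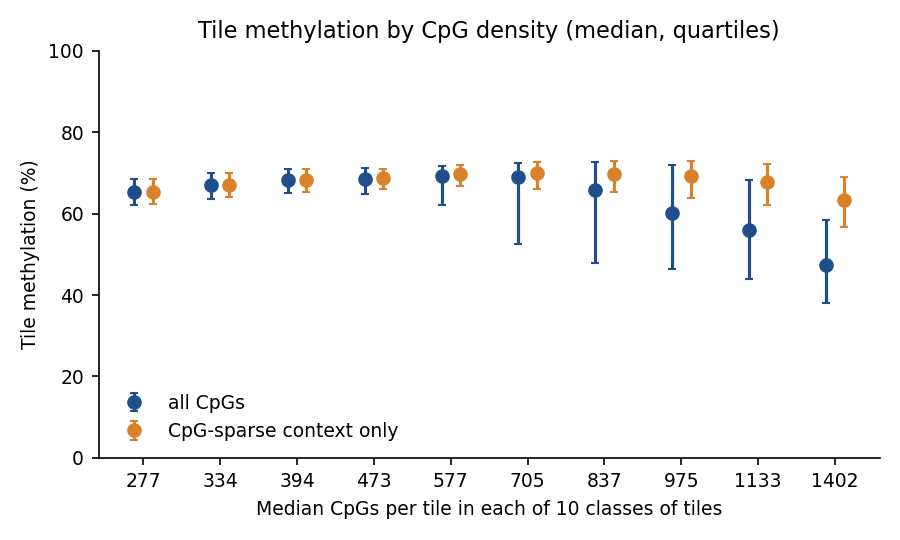
Methylation of 100 kb tiles in percent in 10 classes of CpG density, labelled by the median number of CpGs per tile. Points are medians and bars quartiles for all CpGs (blue) and CpG-sparse context (orange); with all CpGs the median is highest in the fifth class, 69.2%, and lowest in the last, 47.4%.

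Tile methylation followed the number of gene starts more closely than the length of gene sequence (rho of -0.587 and -0.198 over all tiles, as a description). The 13168 tiles without the start of a protein-coding gene had a median of 69.2% and an SD of 6.28 points. The 5160 tiles with 1 start had a median of 56.4%, the 3707 tiles with 2-3 starts 49.1%, and the 1370 tiles with 4 or more 42.9%. Tiles with a start were lower by 17.1 points in the median (SD 2.08 over the autosomes), lower on 19 of 19. The share of the tile inside genes gave no such order. The median was 68.8% in the 8127 gene-free tiles, 51.1% where 50-75% of the tile was genic, and again 66.0% where 75-100% was. Many tiles of that last class lay within a single long gene. Where at least 75% of the tile was genic and it held no start, the median was 69.7% (3794 tiles), and with 4 or more starts 39.8% (368 tiles). The difference of gene-rich (75-100%) minus gene-free tiles was -2.79 points (SD 1.47), and gene-rich tiles were lower on 19 of 19 autosomes.

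The same order by starts was seen, compressed, in CpG-sparse context, where the medians were 69.4, 67.6, 64.9 and 60.1% with 0, 1, 2-3 and 4 or more starts. Tiles with a start were 3.48 points lower than those without (SD 1.05), on 19 of 19 autosomes. CpGs within 2 kb of the start of any annotated gene were then also left out. The medians were 69.4, 69.7, 68.5 and 65.7%. The tiles with 1 start thus no longer lay below those with none, and those with 4 or more still did. The difference between gene-rich and gene-free tiles was -0.37 points in CpG-sparse context (SD 0.876), with gene-rich tiles higher on 9 of 19 autosomes, and its sign is thus not settled by these values. Tiles wholly inside genes and without a start were 0.707 points above gene-free tiles (SD 1.11, higher on 14 of 19 autosomes), and 0.876 points above in CpG-sparse context (15 of 19).

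**Figure D4:**
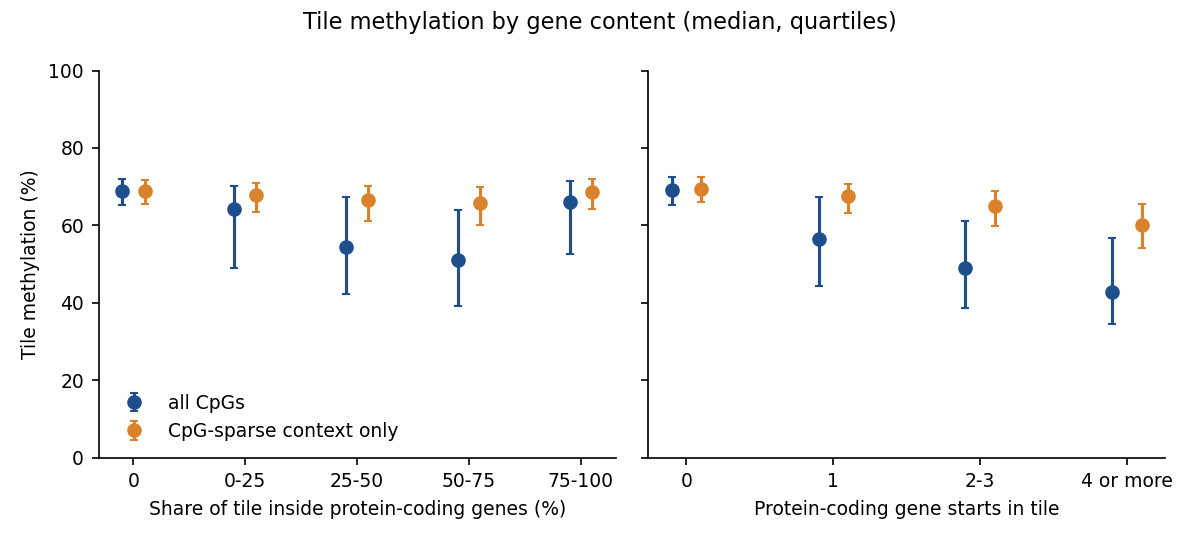
Methylation of 100 kb tiles in percent by the share of the tile inside protein-coding genes (left) and by the number of protein-coding gene starts (right). Points are medians and bars quartiles, for all CpGs (blue) and CpG-sparse context (orange); with all CpGs the medians go from 69.2% without a start to 42.9% with 4 or more, whereas they are 68.8% in gene-free and 66.0% in 75-100% genic tiles.

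The lowest and highest 10% of tiles differed in makeup. The lowest 10%, below 38.8%, held 2.56 starts per tile, and 3.12% of its tiles had none. CpG-dense CpGs supplied 49.3% of its observations, and 51.3% of its CpGs with at least 10 observations were below 20% methylated. The highest 10%, above 73.8%, held 0.251 starts per tile, 83.8% of its tiles had none, and CpG-dense CpGs supplied 4.15% of the observations. Of its CpGs with at least 10 observations, 1.14% were below 20% and 44.9% above 80% methylated. Over all autosomal CpGs with at least 10 observations, these shares were 22.7 and 25.9%. CpG-dense CpGs supplied 22.6% of all observations. The classes were formed by the level of these same CpGs, so the shares of low and high CpGs follow in part from how the classes were made. In CpG-sparse context, whose CpGs are part of the level by which these classes were formed, the medians of these classes were 58.0 and 74.95%, and the shares of CpGs below 20% were 17.7 and 1.13%.

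Each of the 10 lowest tiles held a CpG-dense stretch of high coverage. In the Cdk13 tile, chr13:17800000-17899999, 8.02% of 13185 observations were methylated (interval 7.57 to 8.50%). CpG-dense CpGs gave 91.2% of these observations, and 2.86% of them were methylated, whereas the CpG-sparse level of the tile was 61.9%. The mean over its CpGs was 34.6%. The second lowest, chr3:93200000-93299999 with the epidermal genes Rptn, Tchh and Tchhl1, stood at 11.8%, and its dense observations at 3.47%. The others were a tile at chr6:47600000-47699999 that overlaps no protein-coding gene and in which 50000 bases are unsequenced (12.8%), and the tiles of Caprin2 and Fam60a (12.8%), Insm2 and Ralgapa1 (13.6%), Adam10 and Fam63b (13.8%), Rock2 and Pqlc3 (14.0%), Sp8 (14.2%), Nkx2-4 and Xrn2 (14.3%) and Gphn (14.5%). Adam10 encodes a membrane protease, Gphn the synaptic scaffold gephyrin, and Sp8, Insm2 and Nkx2-4 transcription factors. Their CpG-sparse levels lay between 40.5 and 61.9%.

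In CpG-sparse context other tiles came first. The lowest was chr13:23500000-23599999 with the butyrophilin genes Btn1a1 and Btn2a2 and with Abt1, at 29.6%. Next came the tile of Zfp57 on chromosome 17, at 32.8%, which holds a zinc finger gene whose protein protects methylation at imprinted loci, and the tile of Zfp229 and Zfp760, at 33.2%. Jarid2, a Polycomb cofactor, stood at 33.5%, and Hoxd3 to Hoxd13 at 34.6%. In these tiles a minority of CpGs, CpG-dense ones included, held at least 50% of the observations. Such CpGs were 67 of 452 in the tile of Zfp229 and Zfp760 and 182 of 1235 in that of Btn1a1. They were 143 of 1055 in that of Zfp57, 150 of 940 in that of Jarid2 and, much alike, 40 of 238 in the highest tile of all. In the tile of Zfp229 and Zfp760, the mean over its CpGs, CpG-dense ones included, was 52.6%. The corresponding mean was 35.8% in the tile of Btn1a1, 40.9% in that of Zfp57 and 33.3% in that of Jarid2.

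Most of the 10 highest tiles overlapped no protein-coding gene, which was so for 8127 of all 23405 tiles. The tiles at chr7:79700000-79799999, chr12:44700000-44799999, chr4:3200000-3299999, chr9:3900000-3999999 and chr15:14900000-14999999, overlapped no protein-coding gene and had levels of 82.0, 81.8, 81.3, 81.2 and 80.9%, and so did the tile at chr3:11100000-11199999 (80.9%). The highest of all, at 82.7% (interval 80.9 to 84.4%), was not poor in genes. It held 4 protein-coding starts, and its genes included the pheromone receptor gene Vmn1r165 and Nlrp4e. The next, at 82.4%, held Nlrp4a. The Nlrp4 genes belong to a family expressed in oocytes. Zscan4c, a gene transcribed in 2-cell embryos and in a few ES cells, lay in a tile of 81.2%. In these 10 tiles the CpG-dense CpGs were methylated too, at 84.7 to 93.9%. Their depth was between 1786 and 4817 observations. With each CpG given the same weight, their levels ran from 76.8% in the tile of Vmn1r165 and Nlrp4e to 82.9% at chr9:3900000-3999999. The 95th percentile of all tiles by that measure was 76.98%. The tile that was highest by summed observations thus did not come first by that measure. Zscan4c, Vmn1r165 and the Nlrp4 genes have close copies near by, and the assignment of their reads is uncertain to that extent.

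Most runs of low and of high tiles were single tiles, although the number expected for tiles placed independently was not computed. The tiles below 38.8% formed 1851 runs of adjacent tiles, of which 1510 were single tiles and 14 had 5 or more. The longest, 9 tiles at chr7:19500000-20399999, held 50 gene starts, had a level of 30.2% and included Apoe and the other apolipoprotein genes Apoc1, Apoc2 and Apoc4, the DNA repair genes Ercc1 and Ercc2, and Six5. Runs of 7 tiles lay at chr6:47400000-48099999 (29.7%), with the Polycomb methyltransferase Ezh2 and 7 Zfp genes, and at chr11:97000000-97699999 (33.3%), with Pcgf2, Mllt6 and Lasp1. Runs of 6 tiles covered the Hist2 histone genes (chr3:96000000-96599999, 30.2%) and 40 genes around Stk11, Tcf3 and Polr2e (chr10:79300000-79899999, 33.5%). Tiles above 73.8% formed 1749 runs, of which 1376 were single tiles and 25 had 5 or more. The 5 longest each overlapped 1 gene. They were 11 tiles of Sox5 (75.2%), 9 of Wwox (77.7%), 8 with 3110018I06Rik (77.1%), 7 of Rps6kc1 (76.0%) and 7 of Cdh13 (75.2%). Sox5 encodes a transcription factor, Wwox an oxidoreductase at a fragile site, Rps6kc1 a kinase-like protein and Cdh13 a cadherin. The 5 longest low runs held 10 to 50 gene starts each, and 4 of the 5 longest high runs held none.

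The interiors of long genes were examined for a list of 32 long genes, most of them of neurons, which together had 348 tiles wholly inside them without another start. The median of these tiles was 66.2%, below the 68.5% over the 140 genes with 5 or more such tiles (as the median of their gene medians) and the 69.5% of all tiles wholly inside genes without a start, and the gene medians ranged from 60.9% (Galntl6) to 78.4% (Wwox). The tile with the gene start was lower than the median of the interior in 29 of the 31 genes whose start tile was kept, and higher in Nrxn3 and Fhit. In Dlg2, a synaptic scaffold, the start tile had 27.1% and the 18 interior tiles a median of 62.9% (SD 4.52). Cdh13 had a median of 75.02% over 9 interior tiles (SD 0.937), and 8 of 8 interior tiles of Wwox were in the highest 10%. The 5 genes with the highest interiors, Immp2l, Auts2, Cdh13, Wwox and Magi2, had a median of 462 to 1296 CpGs per interior tile, and the 5 with the lowest, Galntl6, Erbb4, Kcnip4, Grm5 and Lrp1b, 261.5 to 354. In Ptprd, a receptor phosphatase, 1 interior tile stood at 26.1%, the only one of the 348 in the lowest 10%.

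Gene families took different places in the distribution. The level of a gene is here that of the tile holding its start, in a description of lists fixed with earlier results known, and genes of a cluster share tiles. Over all 20783 protein-coding starts in kept tiles the median was 48.3%, with 28.7% of starts in the lowest 10% of tiles and 2.78% in the highest 10%. Of the Hox genes, which specify position along the body axis, 38 of 39 (9 tiles) were in the lowest 10%, with a median of 22.8%, from 17.6% for Hoxd10 to 53.9% for Hoxb13. Of the replication-dependent histone genes, 52 of 67 (11 tiles) were, with a median of 22.6%, and the testis histone gene Hist1h2ba was the highest at 63.6%. Both lists were also low in CpG-sparse context, with medians of 36.7 and 44.8% against 64.1% over all starts. In that context 37 of 39 Hox genes and 63 of 67 histone genes were in the lowest 10% of tiles, against 27.8% of all starts.

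Other lists of widely used or developmental genes lay between these and the level of all starts. Of the developmental transcription factor genes, 27 of 45 were in the lowest 10% (median 35.5%, Evx2 22.6% to En1 63.3%), and of the ribosomal protein genes 43 of 78 (38.0%, Rps29 15.1% to Rpl10l 61.0%). Of the neuronal REST target genes, 12 of 23 were (37.6%), from 26.8% for the glutamate receptor gene Grin1 to 72.1% for the sodium channel gene Scn3a. In CpG-sparse context 8 of 23 were, with a median of 61.0%, nearer to the 27.8% and 64.1% over all starts. With all CpGs, the glycolysis genes had 7 of 15 (39.7%, Pgam1 28.6% to Hk1 64.0%), the DNA methylation and demethylation enzyme genes 5 of 12 (39.8%, Apex1 20.8% to Tet3 67.9%), the pluripotency genes 11 of 23 (45.1%, Dppa5a 22.2% to Dppa4 65.4%) and the long neuronal genes 15 of 32 (40.2%). In CpG-sparse context the developmental transcription factor genes had 26 of 45 (median 57.3%) and the ribosomal protein genes 45 of 78 (56.0%). The glycolysis genes then had 8 of 15 (58.4%), the enzyme genes 7 of 12 (57.6%) and the long neuronal genes 17 of 32 (57.7%). The counts of the enzyme and glycolysis lists rest on few genes. With all CpGs, the median of the pluripotency genes is close to the 48.3% over all starts. In CpG-sparse context it was 54.8%, below the 64.1% over all starts, with 14 of 23 of these genes in the lowest 10%. Rest itself lay in a tile of 39.4%, just above the limit of the lowest 10%. That tile includes the stretch of 123 CpGs without observation, which therefore do not count in its level. In CpG-sparse context the tile stood at 53.1%, within the lowest 10% of tiles by that measure (below 58.7%).

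Near the background of 28.7% were the imprinted genes, with 12 of 34 in the lowest 10% (median 44.5%, Ube3a 19.8% to Meg3 65.5%), and the Zfp genes, with 127 of 349 (44.2%, Zfp57 18.6% to Zfp804b 75.6%). The germline genes had 3 of 21 (48.6%, Zp3 37.1% to Piwil1 69.9%). In CpG-sparse context, the Zfp genes had a median of 58.9%, with 170 of 348 in the lowest 10% of tiles by that measure, against 64.1% and 27.8% over all starts. Of the clustered protocadherin genes, neuronal adhesion genes expressed from alternative promoters, 1 of 24 (6 tiles) was in the lowest 10% with all CpGs (median 40.6%, Pcdhgc5 30.98% to Pcdha11 56.3%), and 23 of 24 in CpG-sparse context (46.6%).

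Families used in specialised tissues lay at the upper side. The olfactory receptor genes, expressed one at a time in nasal sensory neurons, had 17 of 1054 (318 tiles) in the lowest and 85 in the highest 10%, with a median of 66.8% (Olfr1368 22.4% to Olfr600 80.3%). Vomeronasal receptor genes had 10 of 257 in the lowest and 30 in the highest (67.9%, Vmn1r85 16.2% to Vmn1r165 82.7%). Keratin and keratin-associated genes, of skin and hair, had 0 of 96 in the lowest and 15 in the highest 10% (28 tiles, 70.1%, Krt16 42.4% to Krt36 77.9%). The cytochrome P450 genes had 4 and 7 of 91 (67.4%, Cyp46a1 30.9% to Cyp2a5 77.8%), the serpin genes 3 and 1 of 59 (68.7%, Serpini1 28.1% to Serpinb9g 74.0%) and the defensin genes 1 and 4 of 46 (65.9%, Defb23 22.8% to Defb9 74.2%). With all CpGs, these lists lay close to the median of 66.0% over all tiles, and well above the 48.3% over all gene starts. In CpG-sparse context the gap was much smaller. Their medians then ran from 66.1% (defensin genes) to 70.0% (keratin and keratin-associated genes), against 64.1% over all starts.

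**Figure D5:**
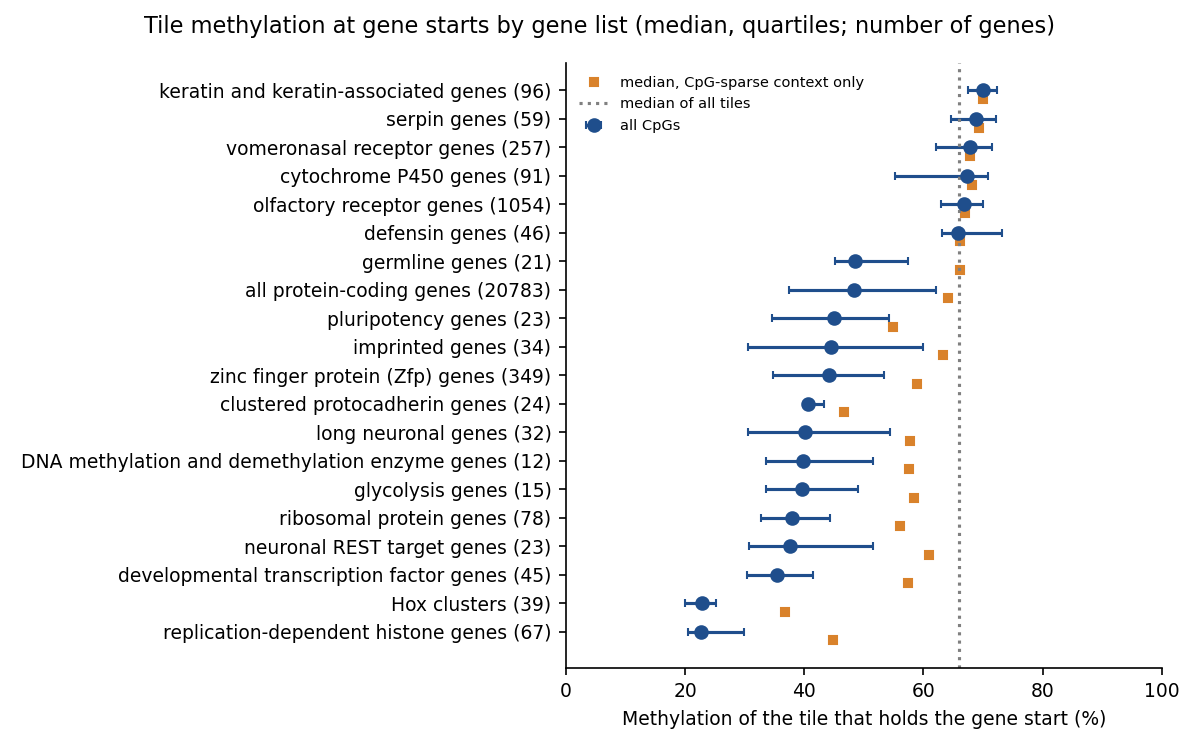
Methylation in percent of the 100 kb tile that holds each gene's start, by gene list, with the number of genes in kept tiles. Blue circles are medians and bars quartiles with all CpGs, orange squares medians in CpG-sparse context, and the dotted line the median of all tiles, 66.0%; histone (22.6%) and Hox genes (22.8%) are lowest and keratin genes (70.1%) highest.

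The wild type libraries gave no single direction for the difference to the knockout. In the 3631 tiles with 200 CpGs in all 3 libraries, the knockout had a median of 44.0%, and wild type replicates 1 and 2 had 36.7 and 40.8%. The median difference per tile (knockout minus wild type) was 7.32 points to replicate 1, 3.22 points to replicate 2 and 4.92 points to the sum of both. In the 13149 tiles that passed with replicate 2 it was -3.86 points, with 39.6% of tiles higher in the knockout (quartiles -11.5 and 6.22). Among the gene-free tiles of these, 1984 in number, the medians were 71.6% in the knockout and 79.1% in replicate 2. The sign thus depended on which tiles had enough reads. Where only wild type CpGs with 1 to 3 observations were used, the difference was -12.8 points (815 tiles). This setting changes the coverage of the wild type CpGs as well as the tiles. In the knockout, CpG-sparse methylation was 74.4% at CpGs with 1 to 3 observations and 62.5% at those with 31 to 96. The part of coverage in the difference was not tested. Across tiles, r was 0.550 with replicate 1 and 0.765 with replicate 2, as a description. Genotype, strain and the CTCF immunoprecipitation differ together between these libraries and cannot be told apart.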

How the data were processed

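One REST knockout and 2 wild type CTCF ChIP libraries of mouse ES cells were used. The authors deposited, for each CpG, the counts of all and of methylated observations (nTot, nMeth). The submitters' processing notes name Bowtie 0.10.0.1 and mm9, and further filters are not given in the sources used here. The knockout file lists 16642627 CpGs with 273375318 observations, and the wild type files 2640893 and 7059577 CpGs with 13411280 and 25262179 observations. All positions on chromosomes 1 to 19 and X are CpGs of the mm9 sequence. Autosomal CpGs with over 96 observations (16025, or 0.0998% of CpGs, with 39.1% of observations) were left out, as were 1326 tiles (5.36%), of which 753 were mostly unsequenced bases and 784 had no observed CpG. Tiles with 180 to 199 CpGs had a median of 63.6% (214 tiles), and those with 200 to 219 also 63.6% (417 tiles). CpGs with 97 to 103 observations were 54.7% methylated, and those with 90 to 96 were 51.0%. Genes are from GENCODE for mm9, and counted gene starts are of protein-coding genes. Where CpGs within 2 kb of a start were left out, the starts of all annotated genes were used. Coverage reads PCR products, so a CpG-dense stretch with more reads counts for more in a summed level. Scripts (Python 3.11.15, NumPy 2.4.6, pandas 2.3.3, SciPy 1.17.1) were tested on simulated data. Genes named are those of the 10 lowest and 10 highest tiles, the 5 longest runs in the lowest and highest 10% of tiles, the extremes of each gene list, the markers and Rest. Other genes, among them those of tiles low in CpG-sparse context and of long gene interiors, were chosen after their values were seen. The tiles and lists were chosen with earlier results of these data known. Some genes that these rules would name are not reported here.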

Additional observations from a re-analysis of the deposited data

How the results depend on the processing

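The descriptions of the tiles were recomputed under 7 or more alternatives each: the median (66.0%), the SD (13.5 points), r of adjacent tiles (0.267), rho with CpG density (-0.270) and the gene-rich minus gene-free difference (-2.79 points). A value counted as moved where it shifted by more than its SD over the autosomes. Without an upper limit on coverage, all 5 stayed within it. With at least 10 observations per CpG, 9832 tiles were left, with a median of 50.5%, an SD of 17.98, a rho of -0.107 and a difference of -16.6. With CpGs weighted equally the median was 70.1%, the SD 8.18 and r 0.372. Tiles of 50 kb gave 67.5%, 14.6, a rho of -0.167 and -0.92, tiles of 200 kb 63.8%, 11.9, -0.370 and -5.57, and at least 500 CpGs per tile 61.7%, an SD of 15.5 and -6.30. Without CpGs within 2 kb of any annotated gene start the median was 68.8% and the SD 7.68, and rho (0.066) and the difference (0.405) changed sign. In this setting the gene starts themselves were removed. The CpG-sparse settings were chosen after seeing the data. They gave 68.0%, an SD of 6.32, r of 0.375, a rho of 0.0089, above 0, and a difference of -0.37, and with CpGs weighted equally 71.5%, 4.93, 0.456, -0.064 and -0.20. Counting all CpGs of the sequence, or all annotated genes, left rho and the difference in place. The knockout minus wild type difference (4.92 points over 3631 tiles) was 7.32 without wild type replicate 2, over 3631 tiles. Without wild type replicate 1 it was -3.86, but over 13149 tiles, so the set of tiles changed too. In the 3631 tiles, the difference to replicate 2 alone was 3.22. The difference was -12.8 with wild type CpGs of 1 to 3 observations, 9.53 without CpGs near starts and 9.34 in CpG-sparse context. The cause of these shifts was not tested. No paired analysis was possible because the knockout is a single library. Depth limits single CpGs, which had a median coverage of 6, more than tiles.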

Other observations

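Chromosome X was not part of the tiles above. Its 1412 tiles with at least 200 CpGs had a median of 65.1% (SD 13.3, range 14.1 to 80.6%), between the lowest autosome median of 63.2% and the median over all autosomal tiles of 66.0%. In CpG-sparse context its median was 65.9% (1393 tiles), below the lowest autosome, which had 67.3%. Its depth was 5.42 observations per CpG in the median tile. The labels do not give the sex of the cells.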
